A study of Mus musculus with 3 samples.

Results

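A set of 10 genes of phagocyte lipid handling and lysosomes were followed through the nuclei of the mouse dorsal root ganglion (DRG): *Gpnmb*, *Atp6v0d2*, *Trem2*, *Tyrobp*, *Lpl*, *Cd63*, *Cd68*, *Ctsd*, *Ctsb* and *Lilrb4a*, out of the 32227 genes in the files. They were chosen by name, with earlier results of these data known, and are described here over classes of nuclei, macrophages first. The measured values that entered the choice of nuclei were the number of genes detected per barcode (more than 1000), the 2960 genes used for clustering and the marker genes that named each cell class. None of the 10 genes was among the clustering or marker genes. Nuclear RNA had been sequenced by PIP-seq, in which droplets around barcoded beads capture single nuclei and each transcript carries a unique molecular identifier (UMI), from DRG at lumbar levels L3 to L5. All mice were C57BL/6 and labelled male, with no treatment named in the labels, and there was 1 adult library (3 months) and 2 aged libraries (21 months, aged replicates 1 and 2). The study's text on animals gives female for the aged mice, and the design text of the series gives a younger age for them than the sample labels, which were used here. How many mice make up a library is not given in the sources used here. The spread between adult samples could not be measured with 1 adult library, and an age difference cannot be told apart from other ways in which that library may differ from the aged pair.

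Macrophages take up lipid-rich debris, pass it to lysosomes and store or export the cholesterol that is set free. TREM2 is a lipid-sensing receptor at the macrophage surface that signals through the adaptor TYROBP (DAP12), and LILRB4A is an inhibitory receptor of the same cells. Lipoprotein lipase (LPL) frees fatty acids from lipoprotein triglycerides. GPNMB is a transmembrane glycoprotein that accumulates in lipid-loaded macrophages, ATP6V0D2 is a subunit of the proton pump (V-ATPase) that acidifies lysosomes, CD68 and CD63 are glycoproteins of the lysosomal and late endosomal membrane, and cathepsins D and B (CTSD and CTSB) are proteases of the lysosome lumen. In peripheral ganglia, resident macrophages lie among the neuronal somas and their satellite glial cells (SGCs).

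The positions of the genes were taken from GENCODE M21 on the mouse build GRCm38. All 10 are protein-coding. *Gpnmb* lies on chromosome 6 (49036546 to 49070929, plus strand), *Atp6v0d2* on chromosome 4 (19876841 to 19922605, minus), *Trem2* on chromosome 17 (48346401 to 48354147, plus) and *Lpl* on chromosome 8 (68880491 to 68907448, plus). *Tyrobp* (30413760 to 30417585, plus) and *Ctsd* (142375911 to 142388038, minus) lie on chromosome 7. *Cd63* (128900989 to 128912822, plus) and *Lilrb4a* (51490956 to 51496611, plus) lie on chromosome 10, *Cd68* on chromosome 11 (69664213 to 69666153, minus) and *Ctsb* on chromosome 14 (63122462 to 63145923, plus). The counts of *Lilrb4a* are uncertain, since 55.7% of its transcript words of 31 bases also occur in transcripts of other genes, 39.1% in its neighbour and paralog *Lilrb4b*. Of the words of *Ctsd*, 33.2% lie in a read-through transcript (Gm49369), and of those of *Cd63*, 15.9% lie elsewhere, mostly in a pseudogene. For the other 7 genes the share was at most 3.24%. *Ctsb* overlaps *Fdft1* on the other strand by 774 bases and *Lilrb4a* the antisense gene Gm40645, and without strand in the counting the reads of such pairs cannot be told apart. Gm49339, a protein-coding gene on the same strand, overlaps the full length of both *Lilrb4a* (5656 bases) and *Lilrb4b* (6072 bases). Counting by strand would not separate these.

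Promoters are shown for the genes with the largest age difference for which a sequence was at hand, because *Gpnmb*, *Trem2*, *Cd68* and *Ctsd* moved together with age (values below). They come from RefSeq on GRCm38.p6, which held a start region for 5 of the 10 genes (*Cd63* being the other). Each is printed 5′ to 3′ on the strand of its gene, as the 250 bases before the start, and for *Gpnmb* also the first 21 bases from the start. Capitals mark matches to CACGTG (the E-box that MITF and TFEB, factors of lysosomal genes, can bind), CATGTG (another E-box), TGANTCA (the AP-1 site) or GGAAGT (an ETS factor core). The regions are chr6:49036268-49036517 and chr6:49036518-49036538 for *Gpnmb*, chr17:48346151-48346400 for *Trem2*, chr11:69666171-69666420 for *Cd68* and chr7:142387828-142388077 for *Ctsd*.
Gpnmb, bases before the start: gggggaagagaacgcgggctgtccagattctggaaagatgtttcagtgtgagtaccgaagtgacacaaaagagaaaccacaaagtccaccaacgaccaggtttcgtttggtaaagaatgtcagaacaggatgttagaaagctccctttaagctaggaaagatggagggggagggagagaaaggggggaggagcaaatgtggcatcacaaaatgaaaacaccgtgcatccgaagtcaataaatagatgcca
Gpnmb, bases from the start: ggggcaagTGACTCAtgagca
Trem2, bases before the start: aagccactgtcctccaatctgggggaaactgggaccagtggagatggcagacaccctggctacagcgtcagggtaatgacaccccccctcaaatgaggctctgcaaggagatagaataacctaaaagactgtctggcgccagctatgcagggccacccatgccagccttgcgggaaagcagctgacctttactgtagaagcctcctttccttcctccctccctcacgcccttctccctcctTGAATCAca
Cd68, bases before the start: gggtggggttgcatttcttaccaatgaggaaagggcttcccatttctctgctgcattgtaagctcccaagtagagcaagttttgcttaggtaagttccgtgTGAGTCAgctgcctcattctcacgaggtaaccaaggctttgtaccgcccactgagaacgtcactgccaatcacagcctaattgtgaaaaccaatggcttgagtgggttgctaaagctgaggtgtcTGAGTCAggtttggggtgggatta
Ctsd, bases before the start: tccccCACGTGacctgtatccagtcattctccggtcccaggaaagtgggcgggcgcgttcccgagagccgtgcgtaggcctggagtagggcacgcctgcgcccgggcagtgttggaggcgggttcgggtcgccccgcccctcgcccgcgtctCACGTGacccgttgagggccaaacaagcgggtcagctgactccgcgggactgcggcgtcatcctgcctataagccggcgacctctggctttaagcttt

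Both strands of the 300 bases around each start (250 before, 50 after) were searched, and no matches of different motifs overlapped. The AP-1 letters lay 9 bases into *Gpnmb*, 9 bases before *Trem2*, and 149 and 24 bases before *Cd68*. *Ctsd* had CACGTG 245 and 98 bases before its start, and *Cd68* had the ETS letters 12 bases into the gene. CATGTG matched in none of the 5 regions, and *Cd63* held only the ETS letters, 230 bases before its start. These distances are from the RefSeq starts, which differ from the GENCODE positions above for all but *Trem2*. By GENCODE the AP-1 letters of *Gpnmb* and the ETS letters of *Cd68* lie before the gene. The ETS letters of *Cd63* and the CACGTG 98 bases before *Ctsd* then lie inside the gene. Of the 32851 start regions in the table, 7.81% held TGANTCA, 7.15% CACGTG, 14.2% CATGTG and 23.8% GGAAGT. A match is a description of letters and not evidence of a bound site.

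The libraries held 69045987 to 167664164 UMIs and 2611 to 11518 nuclei. At most 1 cell barcode was shared between the kept nuclei of any pair of libraries. Clusters were named from markers, and 1 cluster held 9 of 11 myeloid markers (complement *C1qa* to *C1qc*, *Csf1r*, *Mrc1* and others). These myeloid-like nuclei numbered 134, 246 and 206 in the adult and the aged libraries (replicates 1 and 2), with medians of 2288, 3608 and 3699 UMIs. They were 1.25% of named nuclei in the adult library (exact Clopper-Pearson 95% interval 1.05 to 1.47%, counting error only), 5.28% in aged replicate 1 (interval 4.65 to 5.96%) and 8.48% in the other aged library (7.40 to 9.66%). The aged mean was 6.88% ± 2.26 (SD, n = 2), or 5.52 times the adult share, with p = 0.333 in a two-sided exact permutation test, the smallest p that 3 libraries allow. The ratio was 8.37 with a marker gate in place of clusters and 8.12 with a minimum of 2000 genes.

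In aged myeloid-like nuclei, 9 of the 10 genes were higher than in adult ones, and the tenth, *Tyrobp*, did not pass the test. *Gpnmb* was the gene with the lowest p of all 11539 tested, and *Atp6v0d2* had rank 3. These are the lysosomal glycoprotein and the proton pump subunit, and both aged libraries were above the adult one for each. Of all genes tested, 5.32% were higher and 5.3% lower in aged nuclei at an adjusted p under 0.05. The median log2 fold change was 1.80 over the 10 genes and 0.03 over all genes. The test was quasi-likelihood in edgeR on UMIs summed per library, which here had 1 residual degree of freedom and took the lone adult library to vary like the aged ones, and all 10 genes passed its filter on low counts (11.2 CPM in at least 1 library) at both ages. The SE of each log2 value was worked back from the edgeR test statistic and is not a separate estimate of error. With few adult UMIs, as for *Gpnmb*, it can be narrower than the counting error. Levels are given as CPM, the UMIs of a gene per 1000000 UMIs of the same nuclei, and are not compared between genes.

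**Figure D1:**
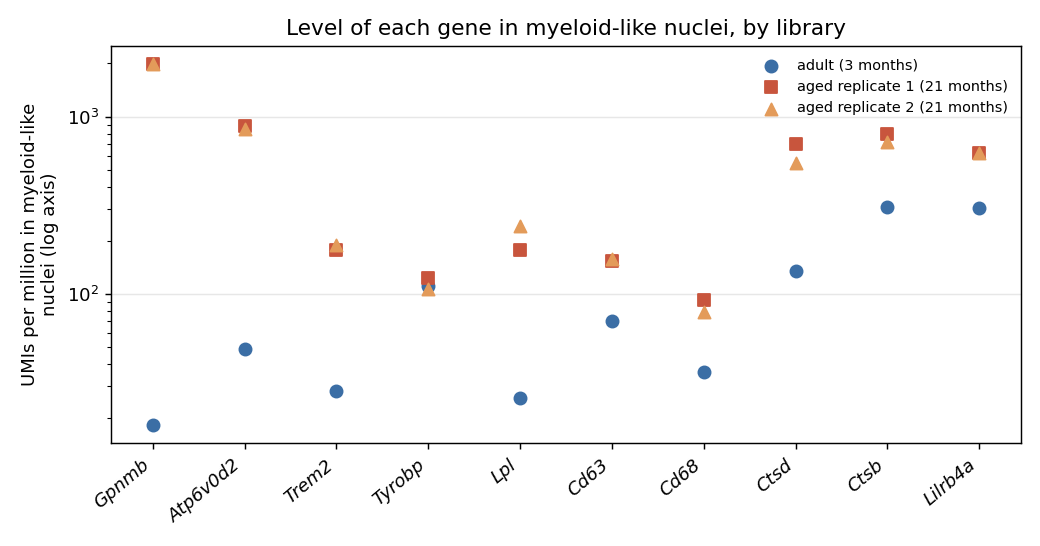
CPM (log axis) of each of the 10 genes in myeloid-like nuclei, 1 point per library (circle, adult; square and triangle, aged replicates 1 and 2). The aged points lie above the adult one for every gene but *Tyrobp*, and for *Gpnmb* they lie at 1984 and 1975 against 18.1.

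Among the receptors, *Trem2* had 11 UMIs (28.4 CPM) in the adult library, 207 (177 CPM) in aged replicate 1 and 170 (190 CPM) in aged replicate 2. Both aged levels, 183 ± 9.22 CPM (SD, n = 2), lay above the adult one by far more than their own spread. The log2 fold change was 2.73 (SE 0.37, adjusted p = 1.71e-05 by edgeR). Its signalling partner *Tyrobp* had 43 UMIs (111 CPM), 144 (123 CPM) and 95 (106 CPM) in the same order. The adult level fell between the aged ones, and the log2 fold change was 0.09 (SE 0.30, edgeR adjusted p = 0.892). The ratio of aged to adult CPM was 1.04 for *Tyrobp*, with a counting interval of 0.749 to 1.48, and 6.41 (3.54 to 13) for *Trem2*. These counting intervals of the receptor and its adaptor did not overlap. With nuclei thinned to 1000 UMIs the gap was smaller, the log2 fold change being 1.67 for *Trem2* (edgeR adjusted p = 0.0273) and 0.51 for *Tyrobp* (0.578).

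*Lilrb4a*, the inhibitory receptor, had 118 UMIs (305 CPM) in the adult library and 730 (623 CPM) and 556 (621 CPM) in the aged ones. It was thus well detected at both ages, and its increase of 1.07 on the log2 scale (SE 0.21, edgeR adjusted p = 0.00110) was the smallest of the 9 that passed. The paralog *Lilrb4b*, with which it shares transcript sequence, had 127 CPM in the adult library and 411 and 459 CPM in the aged ones, a log2 fold change of 1.82 (SE 0.25). UMIs of the pair could be exchanged by the counting, but both were higher in both aged libraries.

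*Lpl*, the lipase, had 10 UMIs (25.9 CPM) in the adult library, 207 (177 CPM) in aged replicate 1 and 215 (240 CPM) in aged replicate 2. The aged replicates differed more for *Lpl* than for *Trem2* or *Gpnmb* (208 ± 44.7 CPM, SD, n = 2), and both were still above the adult library. The log2 fold change was 3.05 (SE 0.39, edgeR adjusted p = 8.34e-06).

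*Gpnmb* had 7 UMIs (18.1 CPM) in adult myeloid-like nuclei, 2323 (1984 CPM) in aged replicate 1 and 1769 (1975 CPM) in aged replicate 2. The aged replicates were 1979 ± 6.12 CPM (SD, n = 2), and the adult library was the lone low value. The ratio was 109, with a counting interval of 53.1 to 272, and the log2 fold change 6.81 (SE 0.31, edgeR adjusted p = 2.28e-13). *Atp6v0d2*, the proton pump subunit, had 19 UMIs (49.1 CPM), 1038 (886 CPM) and 762 (851 CPM) in the same order. Of the 19 adult UMIs, 11 lay in 1 nucleus and all lay in 3 nuclei. The increase was 4.19 on the log2 scale (SE 0.28, edgeR adjusted p = 3.53e-10).

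The other lysosomal membrane genes moved less. *Cd68* had 14 UMIs (36.2 CPM) in the adult library against 108 (92.2 CPM) and 71 (79.3 CPM) in the aged ones, with a log2 fold change of 1.29 (SE 0.40, edgeR adjusted p = 0.0350). *Cd63* had 27 UMIs (69.8 CPM) against 180 (154 CPM) and 141 (157 CPM), and an increase of 1.20 on the log2 scale (SE 0.31, edgeR adjusted p = 0.0130). Both genes were higher in both aged libraries, but their calls were the least stable of the 9: with DESeq2 the adjusted p was 0.626 for *Cd68* and 0.436 for *Cd63*, at log2 fold changes of 1.26 and 1.17. With nuclei thinned to equal depth the edgeR adjusted p was 0.326 and 0.490, at log2 fold changes of 1.17 and 0.67. *Lilrb4a* also missed the threshold with DESeq2 (adjusted p = 0.115).

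Of the proteases, *Ctsd* had 52 UMIs (134 CPM) in the adult library, 819 (699 CPM) in aged replicate 1 and 491 (548 CPM) in aged replicate 2. The aged values of 624 ± 107 CPM (SD, n = 2) had the widest SD of the 10 genes in CPM, and neither came near the adult one. With free RNA subtracted no adult *Ctsd* UMI was left, and 704 and 424 aged ones were. The log2 fold change was 2.26 (SE 0.25, edgeR adjusted p = 1.01e-06). *Ctsb* had 120 UMIs (310 CPM), 936 (799 CPM) and 646 (721 CPM), and a log2 fold change of 1.34 (SE 0.21, edgeR adjusted p = 9.92e-05). The difference between these fold changes was not tested, and their order turned (2.59 for *Ctsd* and 2.65 for *Ctsb*) when nuclei with markers of other blood cells were left out, an alternative added after seeing the data.

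The makeup of the myeloid-like class differed between libraries beside these results. The 11 myeloid markers summed to 2565 CPM in the adult library and 1969 and 2160 CPM in the aged ones, and the core macrophage genes *Csf1r* (log2 fold change -0.15), *Adgre1* (-0.12) and *Mrc1* (0.03) did not pass the test. *Cd163*, a scavenger receptor of resident macrophages, was lower (103, 26.5 and 21.2 CPM, log2 fold change -2.05, SE 0.40, edgeR adjusted p = 9.43e-04). Markers of other cells were partly higher in the adult nuclei: the 5 SGC markers summed to 442, 108 and 53.6 CPM and the 11 neuron markers to 2433, 1516 and 822 CPM, in the order adult, aged replicate 1, aged replicate 2. Neutrophil markers stood at 571, 461 and 774 CPM over 7 genes and cycling markers at 274, 271 and 454 CPM over 5. Dendritic cell markers summed to 189, 47 and 42.4 CPM over 6 genes, *Flt3* being lower in aged nuclei (log2 fold change -1.97, edgeR adjusted p = 0.00135), and B lymphocyte markers to 465, 184 and 143 CPM over 7, *Ebf1* (log2 fold change -1.47, edgeR adjusted p = 3.98e-04) and *Bank1* (-1.47, 9.08e-04) being lower. The estimated share of free RNA was 38.6%, 19.7% and 14.7% of their UMIs, and Malat1, a nuclear RNA, was 3.38%, 1.35% and 1.29%. The part of these differences in the results was not tested. With the free RNA profile of each library subtracted, 8 of the 10 genes and 726 of all 9984 genes tested were higher. Among the 8, *Ctsd* had no adult UMI left and could pass the filter on low counts through the aged libraries alone. The log2 fold changes were then 2.01 for *Cd63* and 2.17 for *Ctsb*, and 0.84 for *Cd68*, which missed the threshold (adjusted p = 0.189 by edgeR).

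Cells that carry some of these genes elsewhere in the body were looked for by their own markers. Melanocytes express *Gpnmb*, and of 5 melanocyte markers *Dct*, *Pmel* and *Mlana* were at 0 UMIs in myeloid-like nuclei of all 3 libraries, the sum being 3, 1 and 2 UMIs. Osteoclasts express *Atp6v0d2*, and their 5 markers summed to 75 CPM in the adult library and 5.98 and 11.2 CPM in the aged ones. Most of that sum was *Acp5* (23, 5 and 6 UMIs), *Ocstamp* was at 0, and each other marker had at most 3 UMIs in a library. The part of these cells in the levels of *Atp6v0d2* was not tested. Of the adipocyte markers, whose cells express *Lpl*, 3 of 5 were at 0 and the rest summed to 1, 1 and 0 UMIs. When myeloid-like nuclei were kept only with at least 1 myeloid marker UMI and none of a neutrophil, dendritic, osteoclast or lymphocyte marker, an alternative chosen after seeing the data, 20, 67 and 50 nuclei were left. In these, *Gpnmb*, *Ctsd* and *Ctsb* were still called higher by edgeR, as were 133 of all 5666 genes tested there. *Lpl* was also called, on 1 adult UMI, and whether it passed the filter on low counts at both ages was not checked. *Atp6v0d2* had 0, 225 and 161 UMIs and could pass that filter through the aged libraries alone, so its call is not counted. *Tyrobp* (log2 fold change -0.15) did not pass the test. The calls of *Trem2* (log2 fold change 1.59), *Cd63* (1.98), *Cd68* (2.23) and *Lilrb4a* (0.72) were lost, with 20 adult nuclei and at most 3 adult UMIs for the first 3 of these genes, which does not show that the increases were absent.

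The number of nuclei that held a gene was compared next. *Gpnmb* had a UMI in 2.99% of adult myeloid-like nuclei (0.819 to 7.47%), 59.8% of those of aged replicate 1 (53.3 to 65.9%) and 57.8% of those of aged replicate 2 (50.7 to 64.6%). In neuron-like nuclei, given for comparison, the shares were 4.75%, 5.99% and 5.65% at median depths of 7335, 5639 and 7465 UMIs. These shares are not a measure of free RNA. The neuron-like level of *Gpnmb* was at most 5.79 CPM in any library, while free RNA held 7.80, 60.5 and 55.3 CPM. The adult myeloid-like nuclei were shallower than the neuron-like ones, and at 1000 UMIs per nucleus their share was 2.24% (0.464 to 6.40%) against 0.549% (0.356 to 0.810%) in neuron-like nuclei, intervals that overlap. *Gpnmb* reached 4 UMIs in its highest adult nucleus and 88 and 92 in the highest aged ones. At least 10 UMIs were found in 0 of 134 adult nuclei, 73 of 246 in aged replicate 1 and 54 of 206 in aged replicate 2. The adult count of 0 allows up to 2.24%, taking 3 nuclei as its limit and not an exact interval. Among aged nuclei with a UMI the median was 9 in replicate 1 and 8 in replicate 2.

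*Atp6v0d2* was found in 2.24% of adult myeloid-like nuclei, 46.3% of aged replicate 1 and 41.7% of aged replicate 2, against at most 2.63% of neuron-like nuclei. For *Trem2* the shares were 5.22%, 44.7% and 39.8% (neuron-like at most 0.696%), and for *Lpl* 5.97%, 18.7% and 22.3% (neuron-like at most 5.34%). *Tyrobp* was found in 25.4%, 39% and 36.9%, and these intervals overlapped little on all UMIs. When each nucleus was thinned to 1000 UMIs, which left out no myeloid-like nucleus, the *Tyrobp* shares were 10.4%, 14.2% and 13.6% and their intervals overlapped widely. *Gpnmb* remained in 3 of 134, 127 of 246 and 103 of 206 thinned nuclei, and the thinned shares were 1.49%, 33.3% and 26.2% for *Atp6v0d2* and 3.73%, 15% and 15.5% for *Trem2*.

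**Figure D2:**
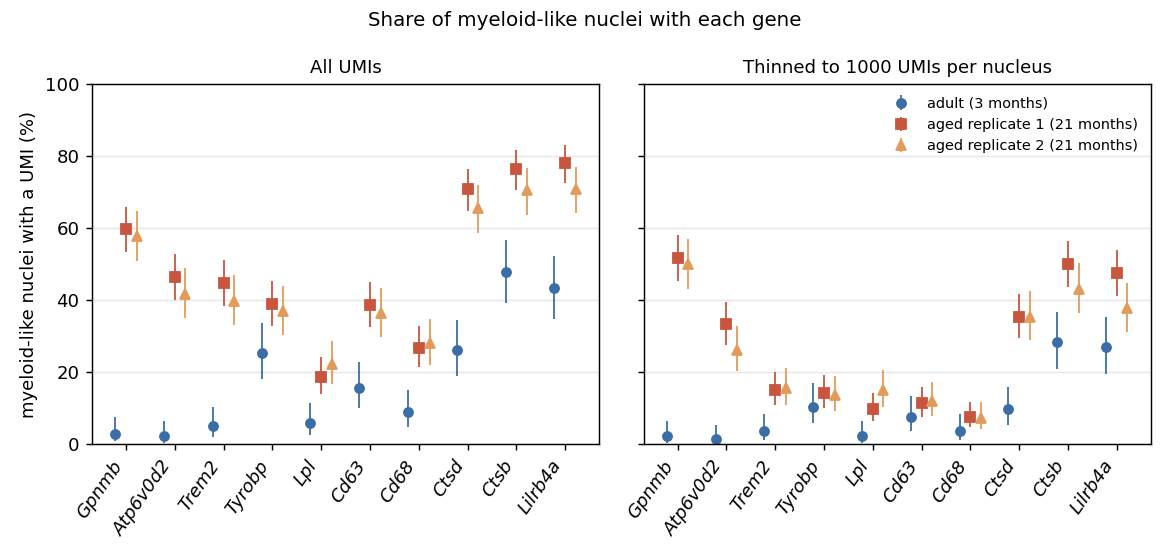
Percent of myeloid-like nuclei with at least 1 UMI of each gene, on all UMIs (left) and after thinning to 1000 UMIs per nucleus (right), with exact 95% intervals that cover counting error only. *Gpnmb* is near 3% in the adult library and near 59% in the aged ones on the left, and *Tyrobp* differs little on the right.

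Counted per nucleus, a median of 2 of the 10 genes had a UMI in adult myeloid-like nuclei and 5 in both aged libraries. After thinning the medians were 1, 3 and 2. At least 3 of the 10 genes were found in 7.46% of thinned adult nuclei, 52.4% of those of aged replicate 1 and 46.6% of those of aged replicate 2, and in at most 1.12% of thinned neuron-like and 0.864% of thinned SGC-like nuclei.

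Within the aged libraries the genes did not spread evenly over the myeloid-like nuclei. *Gpnmb* split them into 147 nuclei with and 99 without a UMI in aged replicate 1, and 119 and 87 in aged replicate 2. Nuclei with *Gpnmb* were deeper (medians of 4473 against 2580 UMIs in replicate 1 and 4230 against 3070 in replicate 2), and since they were picked by 1 of the 10 genes the levels that follow are a description with no test. *Atp6v0d2* stood at 1306 and 1309 CPM in nuclei with *Gpnmb* and at 26 and 22 CPM in those without. *Trem2* stood at 234 and 262 CPM against 59.9 and 59.6 CPM, *Lpl* at 241 and 333 CPM against 44.3 and 72.1 CPM, and *Ctsd* at 899 and 756 CPM against 289 and 173 CPM. *Tyrobp* was level between them, at 123 and 107 CPM with *Gpnmb* and 122 and 104 CPM without, as was *Csf1r* at 262 and 257 CPM against 255 and 216 CPM.

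The same nuclei differed in genes outside the 10. *Lgals3*, a lectin of phagocytes, stood at 1067 and 1213 CPM in nuclei with *Gpnmb* against 120 and 207 CPM without. *F13a1* (90.2 and 166 CPM against 961 and 1763 CPM), *Cd163* (5.08 and 0 CPM against 70.3 and 59.6 CPM) and the neutrophil gene *S100a9* (40.7 and 52.0 CPM against 393 and 925 CPM) ran the other way. The aged nuclei without *Gpnmb* held *Lilrb4a* at 367 and 314 CPM and *Atp6v0d2* at 26 and 22 CPM, next to 305 and 49.1 CPM in all adult myeloid-like nuclei. Their levels of *Trem2*, *Lpl* and *Ctsd*, given above, were higher in both aged libraries than the adult 28.4, 25.9 and 134 CPM. Those of *Ctsb* (487 and 273 CPM, adult 310), *Cd63* (75.5 and 56.5 CPM, adult 69.8) and *Cd68* (39.1 and 28.2 CPM, adult 36.2) lay on either side of the adult level. Of aged nuclei with *Atp6v0d2*, 94.7% in replicate 1 and 96.5% in replicate 2 also held *Gpnmb*, and of those with *Gpnmb*, 73.5% and 69.7% held *Atp6v0d2*. After thinning the first pair of shares was 89.0% and 94.4%.

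To see where else the genes were detected, their levels were compared over the 8 classes with at least 20 nuclei in every library. The classes were not defined by these genes, and the levels are given as means ± SD of the 3 libraries, without a test. Of the 10 genes, chosen by name as phagocyte genes, 9 had their highest mean in myeloid-like nuclei. How many of all genes show this pattern, or the one that follows, was not counted. For *Trem2* (132 ± 89.6 CPM), *Tyrobp* (113 ± 8.67), *Lilrb4a* (516 ± 183), *Lpl* (148 ± 110), *Atp6v0d2* (595 ± 473) and *Cd68* (69.2 ± 29.3) the lowest myeloid-like library was above the highest library of every other such class. This holds for classes by clusters. With the marker gate in their place the adult myeloid-like sum of *Atp6v0d2* was 1 UMI. The next class was lymphocyte-like for *Tyrobp* (34.2 ± 19.8 CPM), *Lilrb4a* (59.8 ± 24.8), *Atp6v0d2* (14.2 ± 17.6) and *Cd68* (12.0 ± 8.57).

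The name of the group fitted the rest less well. Among these 8 classes *Cd63* had its highest mean in non-myelinating Schwann cell (NMSC)-like nuclei (139 ± 37.2 CPM), then in myeloid-like (127 ± 49.6) and myelinating Schwann cell (MSC)-like nuclei (117 ± 26.1), classes whose libraries overlapped, and its lowest in neuron-like nuclei (25.4 ± 3.64). Mural-like nuclei, which numbered 61, 19 and 4, held more (179 ± 34.1 CPM). The order turned when each nucleus was classed by its own markers in place of clusters (the marker gate): *Cd63* was then at 146 ± 66.2 CPM in myeloid-like, 134 ± 18.7 in MSC-like and 51.8 ± 10.5 in NMSC-like nuclei. *Ctsb* and *Ctsd* were present in every class, from 133 ± 43.6 CPM (*Ctsb*) and 84.4 ± 18 CPM (*Ctsd*) in SGC-like nuclei to 610 ± 263 and 461 ± 292 CPM in myeloid-like nuclei, and the adult myeloid-like level of *Ctsd* (134 CPM) lay among the adult levels of other classes. For *Ctsb* the adult myeloid-like level (310 CPM) was above the adult level of every other class, the highest of these being mural-like (253 CPM). With free RNA subtracted, 41 of its 120 adult myeloid-like UMIs were left. Free RNA itself held *Ctsb* at 526, 757 and 845 CPM and *Ctsd* at 373, 497 and 507 CPM (adult, aged replicate 1, aged replicate 2). The part of free RNA in the levels of these 2 genes by class was not tested. *Gpnmb* averaged 1326 ± 1132 CPM in myeloid-like and 109 ± 29.3 CPM in NMSC-like nuclei, where it was detected at both ages (98.3, 142 and 86.2 CPM), and in the adult library its NMSC-like level was above its myeloid-like one. With the marker gate its NMSC-like levels were 16.5, 56.9 and 35.1 CPM, and its MSC-like mean (128 ± 111 CPM) was above its NMSC-like one (36.2 ± 20.2 CPM).

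**Figure D3:**
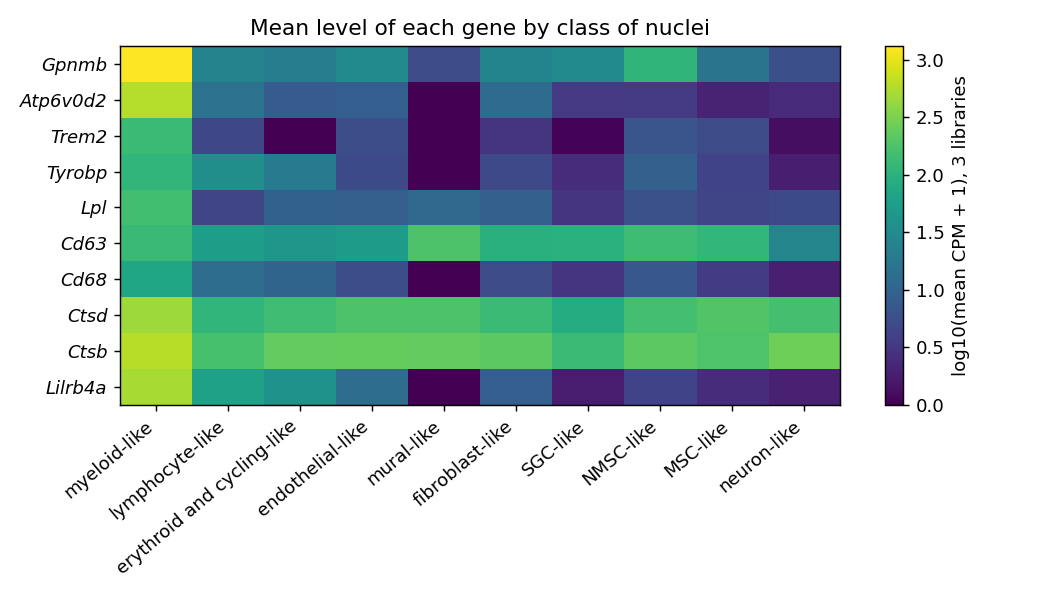
Mean level of each gene (rows) in each class of nuclei (columns), as log10(mean CPM + 1) over 3 libraries, to be read along a row. Myeloid-like nuclei are highest for 9 genes among classes with 20 or more nuclei per library, while *Cd63*, *Ctsd* and *Ctsb* are present in all classes. The mural-like and the erythroid and cycling classes hold fewer than 20 nuclei in at least 1 library.

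The share of each gene's UMIs that lay in myeloid-like nuclei, which rests on both the level and the number of these nuclei, differed between libraries. For *Gpnmb* it was 0.996% at 3 months, against 75% and 83.6% in the aged replicates. For *Atp6v0d2* it was 22.9%, 87.6% and 89.2%, and for *Lpl* 2.92%, 44.5% and 64.2%. For *Ctsb* it was 0.642%, 5.47% and 7.24%, most of its UMIs lying in neuron-like nuclei at every age. The 5 genes whose profile over the 8 classes was most like the mean of the 10 were *Gpatch3* (Pearson r = 0.982), *Ms4a14* (0.981), *Ms4a7* (0.978), *Gm50020* (0.977) and the complement gene *C1qb* (0.975). The points of this comparison share libraries, and 1 class, myeloid-like, stands far from the rest.

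The same age contrast was then tested in other classes. In neuron-like nuclei, where 9.16% of all genes were called by edgeR in either direction, 0 of the 10 genes passed, 2 having an unadjusted p under 0.05. In endothelial-like nuclei (0.762% of genes called) 0 of 6 tested genes passed and in lymphocyte-like nuclei (1.22%) 0 of 8, with 3 unadjusted p-values under 0.05 in each. In fibroblast-like nuclei (3.96%) *Gpnmb* stood at 4.80, 30.7 and 38.1 CPM and *Atp6v0d2* at 1.68, 7.81 and 24.8 CPM in the same order of libraries. Both passed the filter on low counts (5.58 CPM in that class) through the aged libraries alone, so their calls are not counted, and none of the other 7 tested genes passed the edgeR test. In MSC-like nuclei (11.5%) 1 of 5 passed, *Gpnmb* at 5.42, 19.0 and 20.8 CPM.

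In SGC-like nuclei, where 13.1% of genes were called, 3 of 6 tested genes passed. *Gpnmb* (15.3, 35.4 and 37.3 CPM) and *Ctsb* (83.3, 166 and 148 CPM) were higher in both aged libraries, and *Cd63* (122, 93.7 and 79.8 CPM) was lower, with a log2 fold change of -0.67 (SE 0.14, edgeR adjusted p = 0.00315). In NMSC-like nuclei (10.2%) 8 were tested, and *Ctsd* (83.6, 235 and 140 CPM, log2 fold change 1.01, SE 0.22) and *Ctsb* (141, 294 and 218 CPM) were higher. *Trem2* had 0, 22 and 1 UMIs there and passed the filter on low counts through aged replicate 1 alone, so its call is not counted. *Gpnmb* in free RNA, taken from barcodes of at most 100 UMIs, stood at 7.80, 60.5 and 55.3 CPM, and *Atp6v0d2* at 1.34, 17.1 and 19.97 CPM. *Ctsb* and *Ctsd* in free RNA, given above, were also higher in both aged libraries. The estimated share of free RNA was 17.3%, 20.1% and 20.2% in SGC-like and 40.5%, 44.5% and 41.1% in NMSC-like nuclei. Like its level in free RNA, *Gpnmb* was higher in both aged libraries in fibroblast-like, endothelial-like, SGC-like and MSC-like nuclei. In NMSC-like nuclei (98.3, 142 and 86.2 CPM) and lymphocyte-like nuclei its level in aged replicate 2 was below the adult one. In neuron-like nuclei it was at most 5.79 CPM in any library. The part of free RNA in the low levels of the other classes was not tested.

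The difference between the age effects was tested as an interaction, with myeloid-like nuclei set against all other named nuclei summed and the library as a block. Of all genes, 3.24% passed in this test in either direction, and 6 of the 10 genes did, all with a larger increase in myeloid-like nuclei. The differences on the log2 scale were 6.38 (SE 0.50) for *Gpnmb*, 3.08 (SE 0.46) for *Lpl*, 2.48 (SE 0.46) for *Atp6v0d2*, 2.11 (SE 0.36) for *Ctsd*, 1.75 (SE 0.36) for *Cd63* and 1.16 (SE 0.35) for *Ctsb*, with adjusted p by edgeR from 7.44e-33 for *Gpnmb* to 0.0335 for *Ctsb*. *Cd63* had opposite signs on either side, 1.20 in myeloid-like and -0.49 in other nuclei, the latter not past the threshold. Neuron-like nuclei held by far the most UMIs of the other nuclei, whose makeup differed between libraries. SGC-like nuclei were 26.8%, 9.93% and 9.55% of named nuclei, and adult *Cd63* was 122 CPM in them against 28.4 CPM in neuron-like nuclei. The part of this makeup in the differences was not tested.

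*Trem2*, *Tyrobp*, *Cd68* and *Lilrb4a* did not pass the interaction test. *Trem2* had a difference of -0.22 (SE 0.70), its log2 fold change being 3.03 in the other nuclei, on 10, 70 and 24 UMIs. In those summed other nuclei 9.76% of all genes were called, and of the 10 genes *Atp6v0d2* (64, 147 and 92 UMIs, log2 fold change 1.76) was, by edgeR with an adjusted p of 6.25e-04. *Trem2* passed the filter on low counts there through the aged libraries alone, so its call is not counted. In free RNA *Trem2* stood at 0.757, 9.22 and 8.05 CPM and *Cd68* at 1.40, 9.83 and 8.84 CPM. *Tyrobp* stood there at 6.47, 18.1 and 23.0 CPM and *Lilrb4a* at 4.31, 12.9 and 19.7 CPM. The part of free RNA in the age effects of the other nuclei was not tested. A difference near 0 therefore does not show that other cells raised these genes. With 2 SE on either side, the difference spanned -1.62 to 1.18 for *Trem2*, -1.18 to 0.55 for *Tyrobp*, -0.65 to 1.76 for *Cd68* and -0.40 to 1.05 for *Lilrb4a*, so that differences as large as that of *Ctsb* were not told apart from 0 for *Trem2* and *Cd68*.

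**Figure D4:**
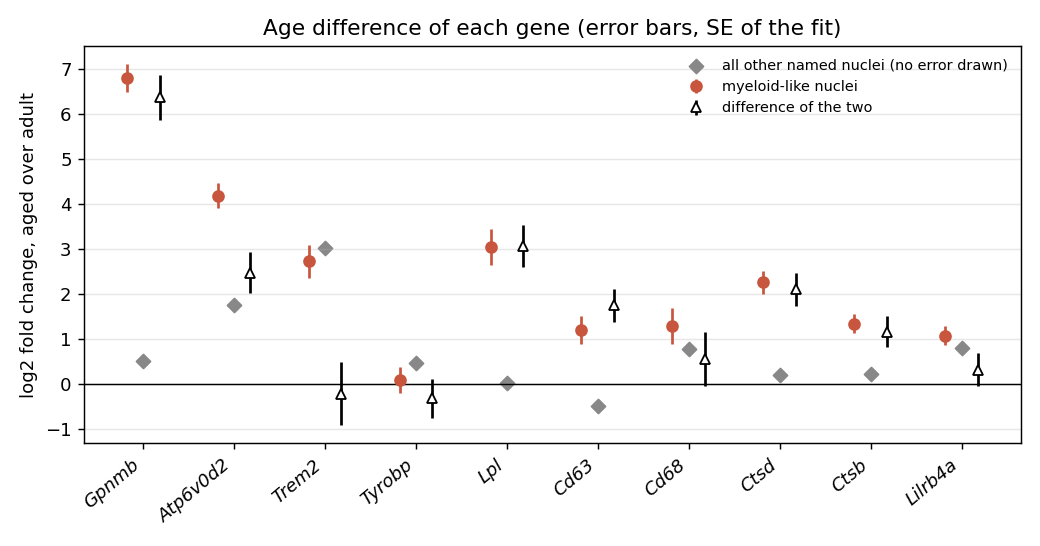
Log2 fold change (aged over adult) of each gene in myeloid-like nuclei (filled circles with SE), in all other named nuclei (diamonds) and their difference from the interaction test (open triangles with SE). The difference is above 0 by several SE for *Gpnmb*, *Atp6v0d2*, *Lpl*, *Cd63*, *Ctsd* and *Ctsb*. It is near 0 for *Trem2*, which had few UMIs in the other nuclei (10, 70 and 24).

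Lists of related genes, chosen like the 10 with earlier results known, were read in the same fit of myeloid-like nuclei. Genes of lipid uptake, storage and efflux were higher in 11 of 25 tested cases and lower in 0, with a median log2 fold change of 1.29. Genes that passed the filter on low counts at 1 age alone are not counted as higher or lower in these lists, and this left out *Fabp4*, *Gla*, *Spp1* and *Ctsk*. *Abca1*, which exports cholesterol, had 194 CPM in the adult library and 1181 and 1367 CPM in the aged ones (log2 fold change 2.76, SE 0.23). The lipid droplet enzymes *Mgll* (2.94, SE 0.25) and *Nceh1* (2.64, SE 0.31) and the scavenger receptor *Msr1* (1.93, SE 0.30) passed as well. The fatty acid carrier *Fabp4* had 1 adult UMI and 105 and 73 aged ones, 33.3 times the adult level (counting interval 5.90 to 1323). *Apoe*, the lipid carrier that binds TREM2, had 662, 888 and 615 CPM and did not pass (log2 fold change 0.23, SE 0.21).

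Lysosomal membrane proteins and hydrolases were higher in 11 of 28 and lower in 0, with a median of 0.76. *Lipa*, the acid lipase of lysosomes, had a log2 fold change of 1.78 (SE 0.33), *Lamp1* 1.64 (SE 0.35) and the cholesterol transporter *Npc1* 1.64 (SE 0.33). *Gla* had 0 adult UMIs and 34 and 21 aged ones, at least 3.43-fold higher against a floor of 3 UMIs. Of 17 V-ATPase subunits 5 were higher and 0 lower, at a median of 0.11. They were *Tcirg1* (1.60, SE 0.24), *Atp6v0a1* (1.46, SE 0.22), *Atp6v1c1* (1.26, SE 0.31), *Atp6v1b2* (0.83, SE 0.24) and *Atp6v0d1* (0.83, SE 0.27, edgeR adjusted p = 0.0490), the ubiquitous paralog of *Atp6v0d2*, which had 127, 207 and 229 CPM.

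Of the other cathepsins 3 of 9 were higher, with a median of 0.34. *Ctsa* (1.25, SE 0.26), *Ctsz* (1.17, SE 0.30) and *Ctss* (0.75, SE 0.20) were higher. *Ctsk*, the collagen-degrading cathepsin of osteoclasts, had 77.6 CPM in the adult library against 8.54 and 4.47 CPM in the aged ones. Of the partners and other phagocyte genes 5 of 15 were higher and 0 lower, at a median of 0.42. *Spp1* had 10.3 CPM in the adult library and 93.1 and 41.3 CPM in the aged ones, a wide spread. *Itgax* (2.50, SE 0.39), *Lgals3* (2.29, SE 0.23) and *Ms4a7* (1.20, SE 0.23) passed, while *Syk* (0.15) and *Plcg2* (-0.09), which act downstream of TYROBP, did not.

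Of the MiT/TFE transcription factors, which drive lysosomal genes, *Mitf* was higher, with 323 CPM in the adult library and 1050 and 951 CPM in the aged ones (log2 fold change 1.68, SE 0.21), and so was *Tfeb* (69.8, 152 and 178 CPM, 1.28, SE 0.32). *Tfe3* (0.47, SE 0.36) and *Tfec* (0.44, SE 0.43) did not pass. The background for these counts is that of the same fit, 5.32% of genes higher and 5.3% lower. Genes that passed the filter on low counts at 1 age alone were not left out of this background, nor of the shares of genes called in other classes. The list counts and their background therefore follow different rules.

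**Figure D5:**
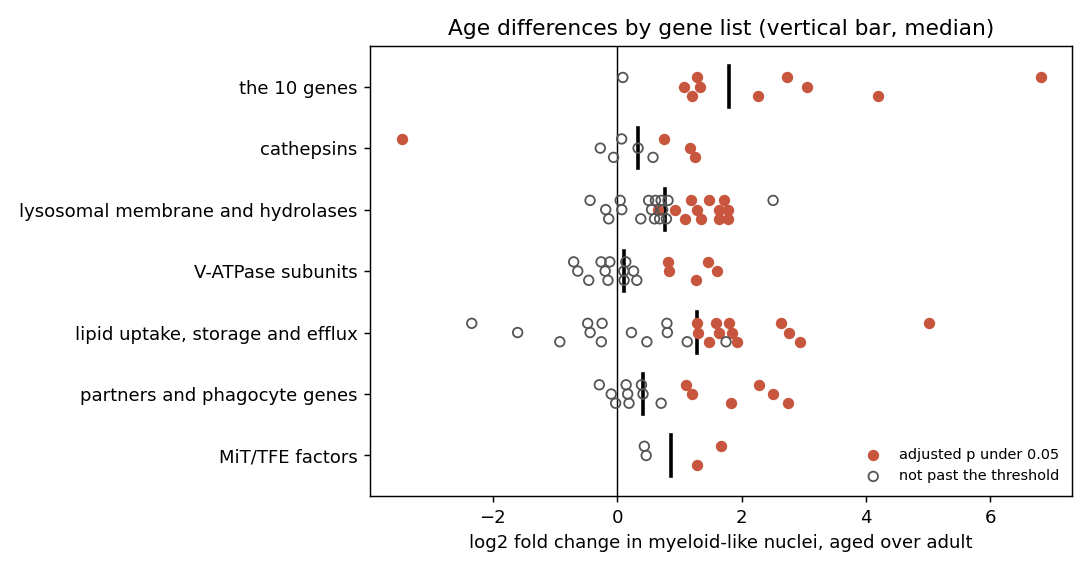
Log2 fold change (aged over adult) in myeloid-like nuclei of every tested gene of each list, filled where the adjusted p by edgeR was under 0.05, with a vertical bar at the median. *Gla*, without an adult UMI, is drawn at its lower bound. The medians lie at 1.80 for the 10 genes, 1.29 for lipid genes and 0.11 for V-ATPase subunits, and *Ctsk* is the lone filled point below 0. *Gla*, *Fabp4*, *Spp1* and *Ctsk* are filled but not counted.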

How the data were processed

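Single-nucleus RNA-seq of 1 adult and 2 aged libraries was used. The authors deposited untransformed UMI counts for every gene and barcode, obtained with Pipseeker (alignment and transcript counting), and the submitters' processing notes name the build mm10. Whether counting used strand is not given in the sources used here. The 10 genes and all lists were chosen with earlier results of these data known. Barcodes with more than 1000 genes were kept (11518, 5130 and 2611 nuclei; 53.8%, 58.4% and 54.5% of UMIs), transformed by SCTransform, joined across ages by reciprocal PCA and clustered in Seurat 5.3.0 (R 4.3.3), with the 10 genes and the gene lists left out of the 3000 integration features (2960 left). A cluster was named from markers over 2-fold above the lower quartile of clusters and in at least 10% of its nuclei, with at least 3 markers. Nuclei of clusters with markers of different lineages (770, 468 and 181) were left out, which is how doublets were treated, and no doublet caller was run. Class names are rebuilt from markers, hence the ending "-like", and can differ from those of the study.

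UMI counts were summed per class and library and tested by quasi-likelihood in edgeR 4.0.16 (TMM scaling, filterByExpr, Benjamini-Hochberg adjusted p under 0.05 over all genes tested) and not by the study's Wilcoxon test over nuclei. Residual degrees of freedom were 1, from the aged libraries. The study calls the libraries biological replicates, without the number of mice in each. The p-values rest on the spread between the aged libraries and on a dispersion drawn from all genes. No spread between adult libraries enters them. On simulated counts for 11539 genes the test called 10%, 64%, 80% and 88% of genes changed by 1, 2, 3 and 4 on the log2 scale, and 6 of 11339 unchanged ones. The simulation gave every gene the same dispersion (0.0286) and let the adult library vary like the aged ones. It therefore does not check that assumption. Intervals are exact at 95% and cover counting error only. Named genes are the 10, up to 5 called genes of largest change per list, paralogs and partners fixed in advance, and the 5 genes of most like class profile (1 gene that this rule names is not reported here); genes used to describe the class or the split by Gpnmb are markers, named beside those results. Alternatives were DESeq2 1.42.0, its size factors, no filter on low counts, a marker gate (at least 2 markers), thinning to 1000 UMIs, a minimum of 2000 genes, free RNA subtraction, leaving out each aged library, and a stricter macrophage class added after the data were seen.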

Additional observations from a re-analysis of the deposited data

Results flagged for a closer look

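For 6 of the 10 genes the age effect in myeloid-like nuclei differed from that in all other named nuclei in the test of the difference itself (edgeR, library as a block). The log2 differences were 6.38 for *Gpnmb*, 3.08 for *Lpl*, 2.48 for *Atp6v0d2*, 2.11 for *Ctsd*, 1.75 for *Cd63* and 1.16 for *Ctsb*, each larger in myeloid-like nuclei. Of all 21545 genes in that test 3.24% passed. The other named nuclei are a sum in which neuron-like nuclei held the most UMIs and whose makeup differed between libraries. The groups hold 1 and 2 libraries, so no check for single libraries that stand apart was possible.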

How the results depend on the processing

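No paired analysis was possible because the sample labels give no pairing of adult and aged libraries. *Gpnmb*, *Atp6v0d2*, *Lpl*, *Ctsd* and *Ctsb* were called higher under all 8 other settings, *Trem2* under 7, *Lilrb4a* under 6, *Cd63* under 3 and *Cd68* under 2. These counts include calls at an adult sum of 0, listed below, which could pass the filter on low counts through the aged libraries alone. Other adult sums were low, such as 1 UMI of *Atp6v0d2* with the gate and 4 of *Gpnmb* after thinning. Passage of the filter at both ages was not checked under these settings, so the counts are no measure of stability. Genes called numbered 1226, against 178 with DESeq2 (68.0% of them higher, against 50.1%), 809 with the marker gate, 478 after thinning and 233 in the stricter macrophage class chosen after seeing the data. Members called fell from 9 to 5 in that class, *Atp6v0d2* without an adult UMI among them. There 133 of 5666 genes tested were higher, and the adult library had 20 nuclei. *Tyrobp*, never called, changed sign to -0.34 with free RNA subtracted, -0.15 in the stricter class and -0.036 without aged replicate 1 (0.18 without aged replicate 2). The cause of these changes was not tested. The ratio of the myeloid-like shares was 8.37 with the gate, 8.12 over 2000 genes and 4.23 to 6.80 when an aged library was left out, against 5.52. Leaving out either aged library leaves 1 library against 1, a value with no test, and of the 1226 called genes 1226 kept their sign in each case. The genes had been called with both aged libraries in the fit, so this outcome was close to fixed in advance and is no measure of stability. Where an adult sum was at 0 the change has a lower bound only, 80.9-fold for *Gpnmb* with the gate, 54.5-fold for *Ctsd* with free RNA subtracted, 10.4-fold for *Trem2* over 2000 genes and 12.4-fold for *Atp6v0d2* in the stricter class (floor of 3 UMIs in the adult sum). The interaction called 6 of the 10 genes with either scaling and 4 with the gate. The adult class holds 386811 UMIs, where a gene with fewer than about 10 UMIs gives wide intervals.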
